A study of Mus musculus with 8 samples.

Results

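The genes described here are 34 adipocyte genes, which cover fat hormones, the transcription factors of fat cells, lipid droplet proteins, and the enzymes and carriers that make, store and release triglyceride. They were taken by symbol from a list given in advance, and all 34 were among the 38926 symbols counted in every library. RNA of whole mouse bladder was sequenced after polyA selection in 8 libraries. The 4 NeMO libraries came from bladders under partial outlet obstruction by an operation that spares the nerves, and the 4 Sham libraries from sham-operated mice. The labels give no strain, sex, age or time after the operation, nor whether the libraries are of separate animals, so p-values reflect no more than the spread among these 8 libraries. Batch 1 holds NeMO replicates 1 and 3 and Sham replicates 1 to 3, and batch 2 holds NeMO replicates 2 and 4 and Sham replicate 4.

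White adipocytes take up fatty acids freed from lipoproteins, also make fatty acids from glucose, join both to glycerol, and store the triglyceride in a large lipid droplet coated with perilipins. On demand, lipases release the fatty acids again. The receptor PPAR gamma (Pparg) and the factor C/EBP alpha (Cebpa) keep these genes on in fat cells. The same cells secrete adiponectin, leptin and adipsin, and in mice resistin. The bladder wall is mainly smooth muscle, connective tissue and urothelium, with fat in and around its outer layer, and several of these genes (Pparg, Scd1, Fasn, Acly, Cd36) also work in other cells. In RNA of whole tissue, fewer fat cells and less of the RNA per fat cell cannot be told apart.

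The promoters below belong to 4 genes that the results turn on: the fat hormone gene Adipoq, the lipogenic genes Fasn and Thrsp, and Pck1, which moved apart from them between libraries. Each run is the 250 bases before the annotated start of transcription in RefSeq's GRCm38.p6 annotation, read 5′ to 3′ on the strand of the gene. Capitals mark the CCAAT box (CCAAT or its reverse complement), a site of the factor NF-Y in many promoters.
Adipoq, chr16:23146286-23146535, plus strand: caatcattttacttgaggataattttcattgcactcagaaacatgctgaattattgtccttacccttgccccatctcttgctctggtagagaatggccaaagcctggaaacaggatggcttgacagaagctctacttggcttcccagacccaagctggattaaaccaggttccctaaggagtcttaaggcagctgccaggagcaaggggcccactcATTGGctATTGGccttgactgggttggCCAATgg
Fasn, chr11:120824548-120824797, minus strand: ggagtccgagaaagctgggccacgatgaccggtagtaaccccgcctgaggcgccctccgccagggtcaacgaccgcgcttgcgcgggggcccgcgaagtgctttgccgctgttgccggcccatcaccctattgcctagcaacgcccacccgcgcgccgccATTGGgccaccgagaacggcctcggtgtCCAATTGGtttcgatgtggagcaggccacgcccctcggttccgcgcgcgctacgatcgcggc
Thrsp, chr7:97417551-97417800, minus strand: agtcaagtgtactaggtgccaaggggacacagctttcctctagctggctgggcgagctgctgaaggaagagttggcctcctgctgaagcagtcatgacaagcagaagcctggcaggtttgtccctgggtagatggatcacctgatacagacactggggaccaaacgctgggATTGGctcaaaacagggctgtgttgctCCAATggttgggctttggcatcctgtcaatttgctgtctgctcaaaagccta
Pck1, chr2:173152823-173153072, plus strand: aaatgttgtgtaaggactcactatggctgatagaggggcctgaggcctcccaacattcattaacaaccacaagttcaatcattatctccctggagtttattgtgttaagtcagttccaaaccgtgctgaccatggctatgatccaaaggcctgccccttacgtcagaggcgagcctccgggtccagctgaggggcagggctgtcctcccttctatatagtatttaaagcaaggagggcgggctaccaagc
Adipoq and Fasn each held 3 matches, Thrsp held 2, and Pck1 held 0. Of the 34 genes, 25 had a promoter in the table. A CCAAT box stood in 10 of their 32 promoters of 300 bases (31.2%), against 37.4% of all 32851 promoters of that length, searched on both strands. The sterol regulatory element TCACNCCAC stood in 1 of the 32 (3.12%, against 1.24% of all promoters), and the E-box CACGTG in 2 (6.25%, against 7.15%). The direct repeat called DR1, which PPAR gamma binds as a pair with the retinoid X receptor, stood in 0 of the 32 and in 0.381% of all promoters. These matches describe letters and not bound sites.

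Library totals were between 29451800 and 36375313 counts in NeMO, and between 27212499 and 33459048 counts in Sham. Markers of the bladder wall were abundant in every library: Myh11, the smooth muscle myosin, spanned 8368 to 18650 CPM in NeMO libraries, against 12050 to 14550 CPM in Sham libraries (CPM are counts relative to library size, after scaling), and the urothelial plaque gene Upk1a 1027 to 1683 CPM in NeMO libraries, against 1453 to 2093 CPM in Sham libraries. A pair of libraries stood apart in the fat genes. NeMO replicate 3 held the lowest value of 29 of the 33 members tested and Sham replicate 4 the highest value of 27. NeMO replicate 3 also had the highest summed level of 5 fibroblast markers, 16370 CPM against 6702 to 10270 CPM in the other NeMO libraries and 7273 to 9797 CPM in Sham. Most of that sum was RNA of the collagen genes Col1a1 (5092 CPM) and Col1a2 (7287 CPM). In the same library Lum was at 957 CPM, Dcn at 2863 CPM and Pdgfra at 166.5 CPM, against at most 743, 2813 and 161.9 CPM in Sham. The results are therefore also given without NeMO replicate 3 and Sham replicate 4, a choice made after their values were seen.

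Most adipocyte genes were lower on average in NeMO bladders, but none passed the test in edgeR. The log2 fold change was below 0 for 33 of the 33 members tested, with a median of −0.89, against 51.7% of all 16370 genes tested and a median of −0.01 over all genes. In edgeR's quasi-likelihood test, 0 of the 33 passed an adjusted p of 0.05, where 0.0733% of all genes did. At an unadjusted p under 0.05, 18 members (54.5%) were lower and 0 higher, against a background of 9.14% lower and 9.38% higher. A log2 fold change under −1 was seen in 13 members (39.4%), against 2.16% of all genes. In DESeq2's test 6 members passed, all lower (Acaca, Cfd, Cidea, Dgat2, Fabp4 and Lipe), which is 18.2% of the 33, against 2.27% of genes called lower and 5.53% called in either direction. The 4 NeMO values lay below the 4 Sham values in 2 members, Fabp4 and Cd36 (6.06%, against 3.81% of all genes). Within batches the median was −0.69 in batch 1 and −1.20 in batch 2, where a single Sham library stands for its group.

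NeMO replicate 3 and Sham replicate 4 are the extremes of the members in opposite directions, so leaving out both had to bring the groups closer. Without them and with the batch term kept, the contrast rests on NeMO replicate 1 alone against Sham replicates 1 to 3, and the median was −0.33 with 26 of 33 members lower. Without them and with no batch term the median was −0.07, and 19 of 33 members were lower, against 50.3% of all genes. In that fit 0 members passed in edgeR. At an unadjusted p under 0.05, 3 members were lower and 1 higher, against 4.82% of all genes lower and 4.32% higher. Without NeMO replicate 1 the median was −1.21, and 6 members passed in edgeR, all lower (Adipoq, Cd36, Dgat2, Fabp4, Pnpla2 and Slc2a4), against 1.98% of all genes called lower. The number of all genes past the threshold, in either direction, was then 652.

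**Figure D1:**
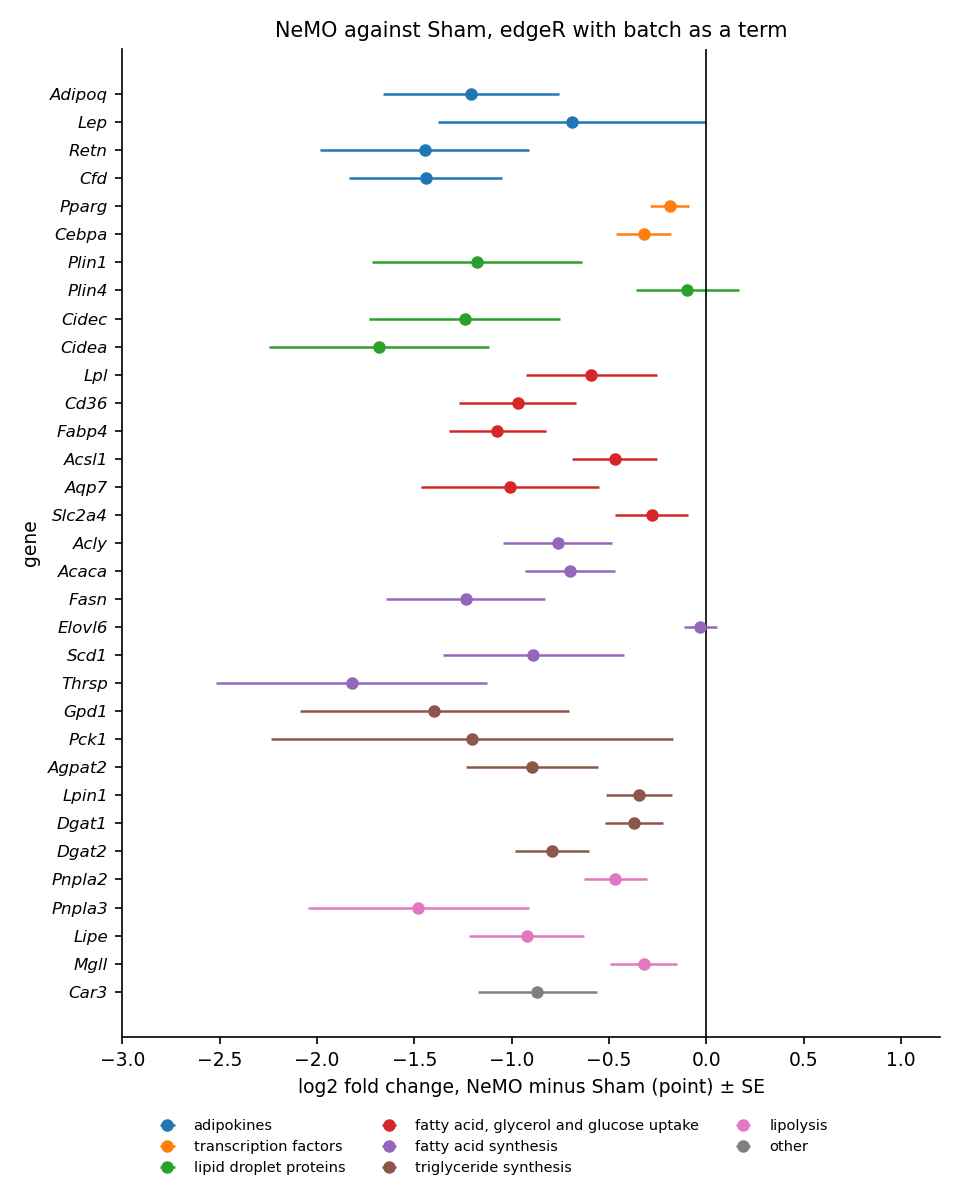
Log2 fold change of each tested member, NeMO minus Sham, in edgeR with batch as a term (points; bars are ± SE; n = 4 libraries each), coloured by role. The points run from −1.82 (Thrsp) to −0.03 (Elovl6), with Pparg, Plin4 and Elovl6 nearest 0.

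Over the 4 adipokine genes the median log2 fold change was −1.32. Cfd, which encodes adipsin, the complement factor D made by fat cells, measured 255, 273, 98.4 and 522 CPM in NeMO replicates 1 to 4, against 652, 420, 309 and 1166 CPM in Sham replicates 1 to 4. NeMO replicates 1 to 3 lay below every Sham library, while NeMO replicate 4 lay among them. The log2 fold change was −1.44 (SE 0.39, edgeR adjusted p = 0.143, DESeq2 adjusted p = 0.0318). Without NeMO replicate 3 and Sham replicate 4 it was −0.85 with the batch term and −0.39 without the term. Adipoq, which encodes the insulin-sensitising hormone adiponectin, measured 59.9, 51.3, 15.2 and 63.3 CPM in NeMO, against 100.2, 55.1, 59.3 and 185 CPM in Sham. Apart from NeMO replicate 3 and Sham replicates 1 and 4, the libraries held a narrow band of 51.3 to 63.3 CPM that both groups share. Its log2 fold change of −1.21 (SE 0.45, edgeR adjusted p = 0.235) was −0.26 without NeMO replicate 3 and Sham replicate 4 (−0.30 with no batch term), and −1.96 (edgeR adjusted p = 0.0305) without NeMO replicate 1. In batch 2 alone it was −1.68 (edgeR adjusted p = 0.0377), against a single Sham library, and in batch 1 alone it was −0.93.

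Retn, the resistin gene, measured 40.7, 24.5, 7.49 and 59.9 CPM in NeMO, against 66.6, 61.1, 51.5 and 136 CPM in Sham, for a log2 fold change of −1.45 (SE 0.54, edgeR adjusted p = 0.232). As in Cfd, NeMO replicates 1 to 3 lay below every Sham library. Lep, which encodes the satiety hormone leptin, measured 10.9, 6.23, 1.17 and 18.8 CPM in NeMO, against 6.33, 6.27, 7.39 and 37.0 CPM in Sham. NeMO replicates 1 and 4 exceeded Sham replicates 1 to 3 in Lep, so the groups overlapped. Its log2 fold change of −0.69 (SE 0.69, edgeR adjusted p = 0.636) was 0.71 without NeMO replicate 3 and Sham replicate 4 (0.85 with no batch term), and −1.97 without NeMO replicate 1 (edgeR adjusted p = 0.0683).

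The transcription factors had the smallest median difference of the roles, −0.25. Pparg measured 98.9, 107, 87.6 and 96.9 CPM in NeMO, against 107, 118, 88.3 and 119 CPM in Sham, and Cebpa 75.7, 71.6, 70.2 and 101 CPM in NeMO, against 85.6, 78.1, 73.2 and 138 CPM in Sham. The log2 fold change was −0.19 for Pparg (SE 0.10, edgeR adjusted p = 0.348) and −0.32 for Cebpa (SE 0.14, edgeR adjusted p = 0.271). Pparg varied 1.22-fold among NeMO and 1.35-fold among Sham libraries, while Adipoq varied 4.16-fold among NeMO and 3.35-fold among Sham libraries. The log2 fold change of Cebpa was −0.11 in batch 1 alone and −0.67 in batch 2 alone, where the Sham group is 1 library.

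Of the lipid droplet genes, Cidec, which encodes the protein that fuses droplets into one, measured 42.0, 24.8, 11.9 and 51.7 CPM in NeMO, against 75.8, 36.9, 43.0 and 128 CPM in Sham, for a log2 fold change of −1.24 (SE 0.49, edgeR adjusted p = 0.25). Plin1, the perilipin that guards the droplet from lipases, measured 28.4, 18.3, 7.37 and 46.2 CPM in NeMO, against 55.5, 23.8, 27.5 and 90.4 CPM in Sham (−1.18, SE 0.54, edgeR adjusted p = 0.307). In both genes NeMO replicate 3 was lowest and Sham replicate 4 highest, NeMO replicate 2 lay below every Sham library, and NeMO replicates 1 and 4 lay within the Sham range. Cidea, a relative of Cidec best known from brown fat, was scarce, with 0.831, 0.927, 0.233 and 0.637 CPM in NeMO, against 2.27, 0.589, 2.93 and 2.05 CPM in Sham (−1.68, SE 0.56, edgeR adjusted p = 0.176). Plin4, a further perilipin, spanned 119 to 287 CPM in NeMO libraries, against 179 to 246 CPM in Sham libraries (−0.10, SE 0.27), and at 0.17 it stood on the other side of 0 without NeMO replicate 3. Plin4 overlaps Hdgfl2 on the opposite strand, and since the strand setting of the counting is not given in the sources used here, reads of the 2 genes cannot be told apart where they overlap.

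Among genes of uptake and transport, Fabp4 had the smallest p of all the members. Fabp4, the fatty acid binding protein of fat cells, also made by macrophages and small vessels, measured 372, 267, 202 and 398 CPM in NeMO, against 514, 645, 416 and 895 CPM in Sham. The gap between the highest NeMO library and the lowest Sham library was narrow, 398 against 416 CPM. The means were 310 ± 91.5 CPM in NeMO and 618 ± 207 CPM in Sham (SD, n = 4 each), with a log2 fold change of −1.08 (SE 0.25, edgeR adjusted p = 0.109, DESeq2 adjusted p = 2.45e-04). It was −0.88 in batch 1, −1.42 in batch 2, and −0.50 without NeMO replicate 3 and Sham replicate 4 (−0.60 with no batch term). Cd36, which encodes a fatty acid translocase, measured 108, 71.6, 47.1 and 106 CPM in NeMO, against 175, 113, 119 and 211 CPM in Sham (−0.97, SE 0.30, edgeR adjusted p = 0.173). Here too the groups did not overlap, by 108 against 113 CPM.

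Aqp7, the channel through which glycerol leaves fat cells, measured 2.95, 2.15, 1.25 and 2.93 CPM in NeMO, against 5.86, 2.77, 1.497 and 7.445 CPM in Sham, for a log2 fold change of −1.01 (SE 0.46, edgeR adjusted p = 0.285). Lpl encodes the lipase that frees fatty acids from lipoproteins. It spanned 119 to 272 CPM in NeMO libraries, against 190 to 359 CPM in Sham libraries (−0.59, SE 0.34, edgeR adjusted p = 0.396). Acsl1, the enzyme that activates fatty acids with coenzyme A, stood at −0.47 (SE 0.22) and Slc2a4, the insulin-responsive glucose carrier shared with muscle, at −0.28 (SE 0.19). Slc2a4 passed in edgeR without NeMO replicate 1 (−0.58, adjusted p = 0.0259) and stood at 0.24 without NeMO replicate 3 and Sham replicate 4 (−0.09 with no batch term).

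Genes of fatty acid synthesis, with a median log2 fold change of −0.83, showed another order of libraries. Fasn, the fatty acid synthase gene, measured 520, 473, 254 and 1389 CPM in NeMO, against 658, 937, 610 and 3186 CPM in Sham. NeMO replicate 4 exceeded Sham replicates 1 to 3, and Sham replicate 4 exceeded all others. The log2 fold change was −1.24 (SE 0.41, edgeR adjusted p = 0.188), and −0.50 without NeMO replicate 3 and Sham replicate 4 (0.11 with no batch term). Acly, which supplies cytosolic acetyl-CoA, measured 325, 361, 272 and 748 CPM in NeMO, against 329, 599, 396 and 1201 CPM in Sham (−0.76, SE 0.28, edgeR adjusted p = 0.216). Acaca, the acetyl-CoA carboxylase of the committed step, measured 39.4, 46.6, 32.1 and 94.8 CPM in NeMO, against 44.5, 61.6, 51.2 and 137 CPM in Sham (−0.70, SE 0.23, edgeR adjusted p = 0.184, DESeq2 adjusted p = 0.0308). Without NeMO replicate 3 and Sham replicate 4 the log2 fold change of Acaca was −0.41 (0.20 with no batch term).

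Thrsp, a nuclear protein gene that follows lipogenesis, varied 22.7-fold among NeMO libraries, the most of the tested members, and 9.38-fold among Sham libraries, where Pck1 varied most (17.9-fold). It measured 33.0, 33.7, 7.63 and 174 CPM in NeMO, against 40.8, 113, 56.4 and 383 CPM in Sham, for a log2 fold change of −1.82 (SE 0.70, edgeR adjusted p = 0.242). Scd1, the desaturase that makes oleate, spanned 283 to 1755 CPM in NeMO libraries, against 1039 to 2941 CPM in Sham libraries (−0.89, SE 0.47, edgeR adjusted p = 0.36). Elovl6, which lengthens palmitate to stearate, was level, with 143 ± 32.1 CPM in NeMO and 132 ± 23.8 CPM in Sham (SD, n = 4 each). Its log2 fold change of −0.03 (SE 0.08, edgeR adjusted p = 0.879) was 0.11 without the batch term.

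**Figure D2:**
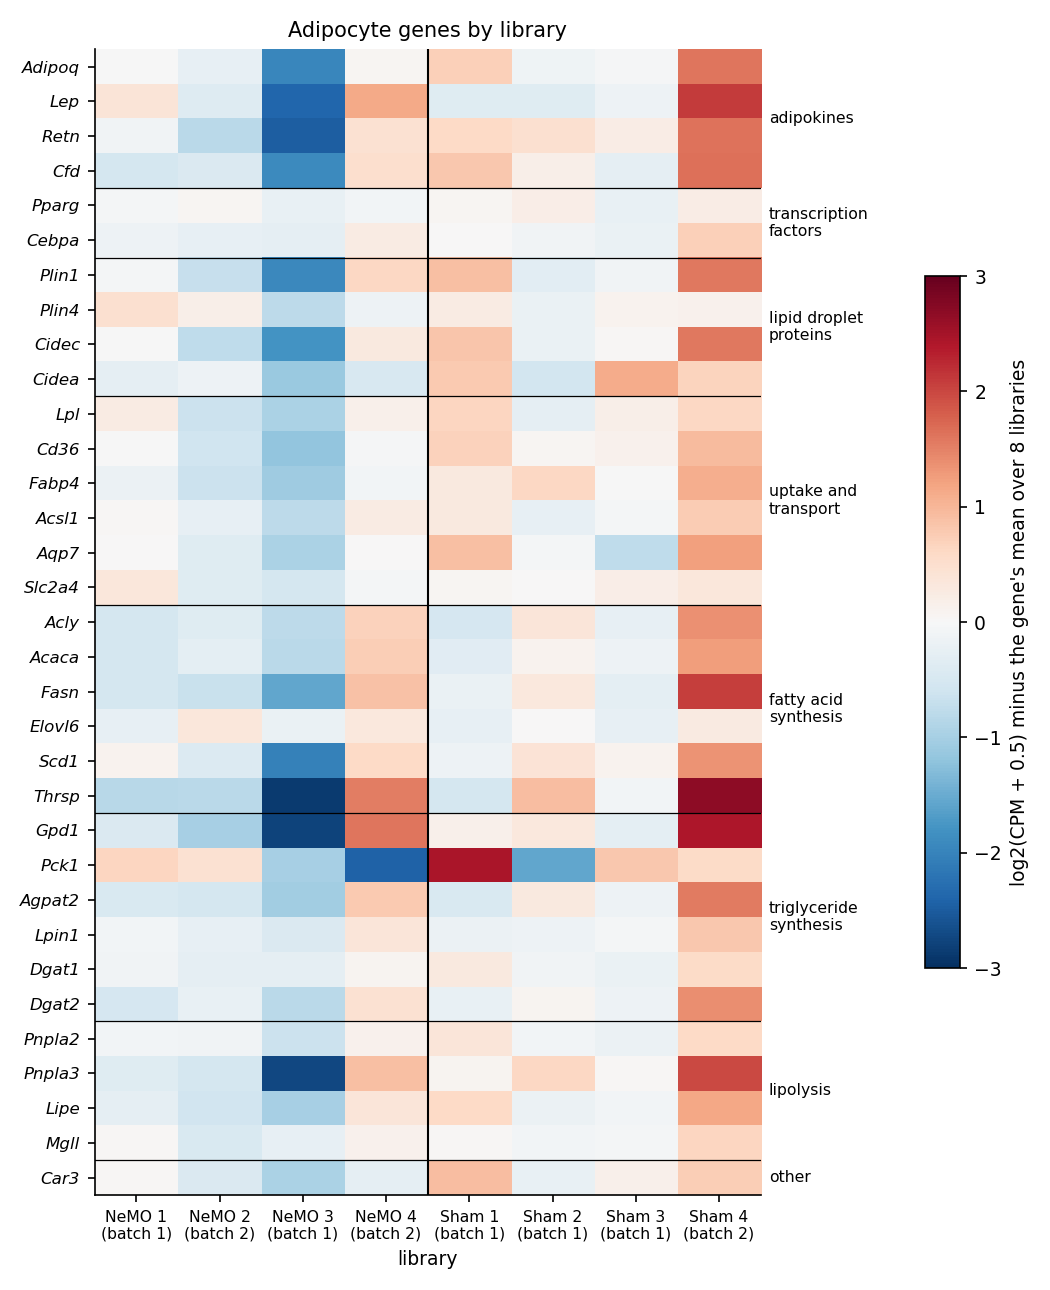
Each row is a tested member and each column a library, NeMO left and Sham right. The colour is log2(CPM + 0.5) minus the gene's mean over the 8 libraries. NeMO replicate 3 is lowest in 29 of the 33 rows and Sham replicate 4 highest in 27, while Pparg and Elovl6 are pale and Pck1 is highest in Sham replicate 1 and lowest in NeMO replicate 4.

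Of the triglyceride synthesis genes, Dgat2, one of the enzymes that add the last fatty acid, measured 131, 160, 105 and 254 CPM in NeMO, against 158, 195, 166 and 483 CPM in Sham, for a log2 fold change of −0.79 (SE 0.19, edgeR adjusted p = 0.112, DESeq2 adjusted p = 0.00211). NeMO replicate 4 was again above Sham replicates 1 to 3. The log2 fold change of Dgat2 was −0.39 without NeMO replicate 3 and Sham replicate 4 (0.07 with no batch term). Its unrelated counterpart Dgat1 measured 31.4, 27.6, 27.8 and 35.6 CPM in NeMO, against 41.3, 31.4, 29.3 and 50.4 CPM in Sham (−0.37, SE 0.15, edgeR adjusted p = 0.235). Agpat2, an acyltransferase whose loss causes lack of fat in mice, measured 35.5, 33.8, 23.6 and 84.9 CPM in NeMO, against 35.9, 60.6, 44.0 and 146 CPM in Sham (−0.90, SE 0.34, edgeR adjusted p = 0.232). Agpat2 overlaps Egfl7 on the opposite strand, so some of its reads may belong to that gene.

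Gpd1, which makes glycerol-3-phosphate from a glycolysis product, measured 38.2, 25.5, 7.17 and 157 CPM in NeMO, against 57.4, 64.1, 42.0 and 282 CPM in Sham, for a log2 fold change of −1.397 (SE 0.69, edgeR adjusted p = 0.34). Lpin1, a phosphatidate phosphatase, stood at −0.35 (SE 0.17). Pck1, whose enzyme takes part in making glycerol-3-phosphate from lactate and amino acids in fat, measured 19.95, 17.3, 6.06 and 1.94 CPM in NeMO, against 70.8, 3.95, 22.4 and 18.9 CPM in Sham (−1.20, SE 1.03, edgeR adjusted p = 0.58). Without Sham replicate 1 the log2 fold change of Pck1 was −0.42. The order of libraries differed from that of Gpd1: NeMO replicate 4 was lowest and Sham replicate 1 highest in Pck1, while Sham replicate 4 was highest in Gpd1.

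For the lipases the median log2 fold change was −0.70. Lipe, the hormone-sensitive lipase gene, measured 50.8, 41.0, 30.7 and 79.2 CPM in NeMO, against 93.3, 55.1, 58.0 and 140 CPM in Sham (−0.92, SE 0.30, edgeR adjusted p = 0.182, DESeq2 adjusted p = 0.0105). Without NeMO replicate 3 and Sham replicate 4 the log2 fold change of Lipe was −0.44 (−0.27 with no batch term). Pnpla2, which encodes the adipose triglyceride lipase of the first step, measured 131, 128, 87.8 and 151 CPM in NeMO, against 177, 132, 123 and 211 CPM in Sham (−0.47, SE 0.16, edgeR adjusted p = 0.189). In both genes NeMO replicate 4 lay between the Sham libraries. Pnpla3, a droplet protein of the same family, measured 22.4, 20.03, 3.93 and 54.9 CPM in NeMO, against 30.5, 44.4, 29.6 and 115 CPM in Sham (−1.48, SE 0.57, edgeR adjusted p = 0.243). Mgll, the monoglyceride lipase of the last step, stood at −0.32 (SE 0.17), at −0.06 in batch 1 alone and at −0.77 in batch 2 alone.

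Car3, a carbonic anhydrase abundant in mouse fat and skeletal muscle, measured 431, 310, 215 and 350 CPM in NeMO, against 793, 361, 468 and 702 CPM in Sham, for a log2 fold change of −0.87 (SE 0.31, edgeR adjusted p = 0.206). Ucp1, the uncoupling protein that marks brown fat, was near the detection limit with 12, 15, 5 and 0 counts in NeMO and 3, 4, 9 and 4 counts in Sham. It was the single member that did not pass the filter on low counts. The 0 counts in NeMO replicate 4 allow up to 0.083 CPM (3 counts, counting error only). Per kilobase of the longest annotated transcript, Cfd had the highest mean level of the members, 312 CPM per kilobase in NeMO and 690 in Sham. Scd1 followed with 215 in NeMO and 349 in Sham, and Car3 with 194 in NeMO and 346 in Sham. Such levels depend on which transcript is expressed.

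**Figure D3:**
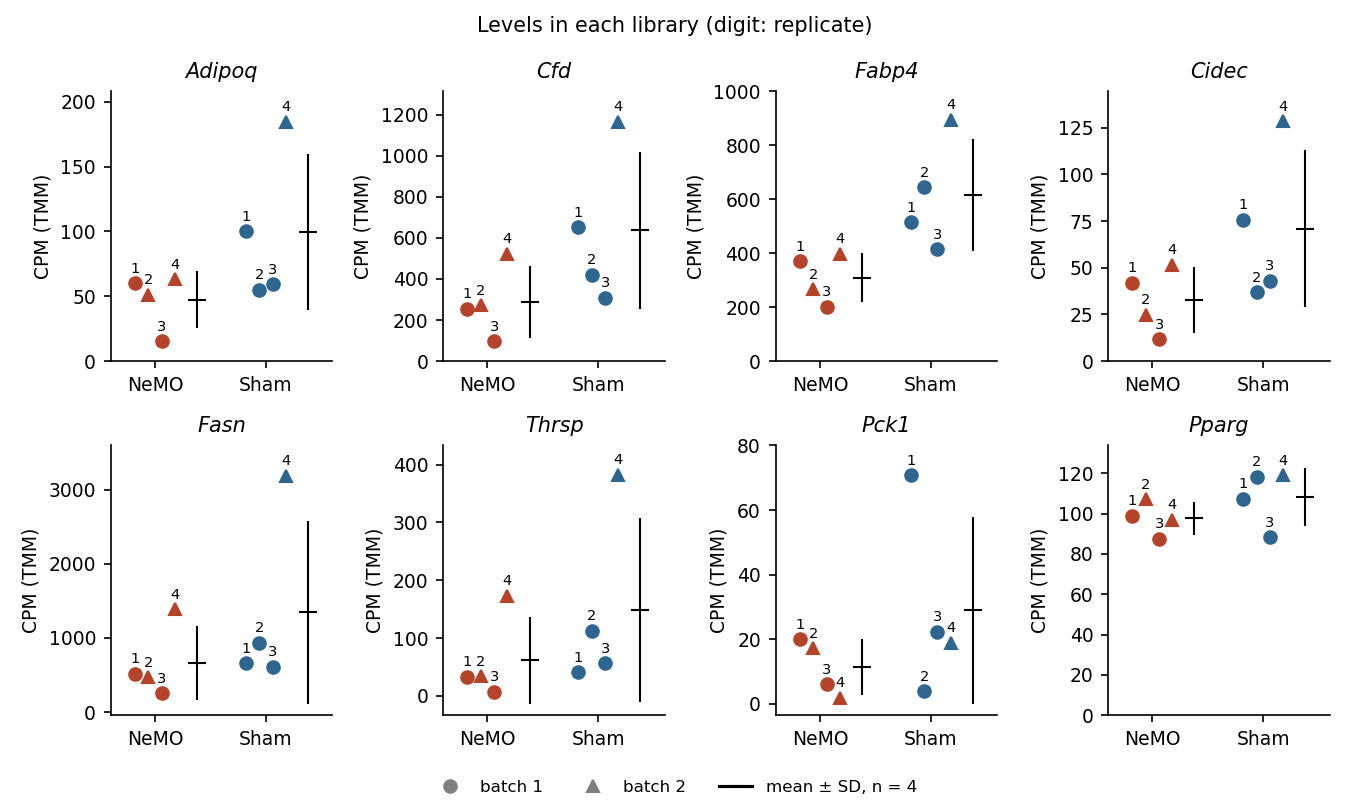
CPM of 8 members in each library (points; the digit is the replicate, the shape the batch), with the mean ± SD of 4 libraries. Adipoq, Cfd, Cidec, Fasn and Thrsp share a high Sham replicate 4, NeMO and Sham do not overlap in Fabp4, and Pparg spans 87.6 to 107 CPM in NeMO and 88.3 to 119 CPM in Sham.

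The libraries differed in the level of most adipocyte genes. They also differed in the balance of Fasn and Thrsp against Pck1, but Thrsp and Pck1 were singled out after their values were seen. Acly, Acaca, Scd1 and Elovl6 did not share that balance. NeMO replicate 3 lay below all Sham libraries in 31 of the 33 members and Sham replicate 4 above all NeMO libraries in 30, where 28.1% and 27.8% of all genes tested did so. The count was 22 for NeMO replicate 2 (24.6% of all genes), 13 for NeMO replicate 1 (23.5%) and 5 for NeMO replicate 4 (23.5%). It was 17 for Sham replicate 1 (20.9%), 5 for Sham replicate 3 (21.1%) and 4 for Sham replicate 2 (19.7%). NeMO replicate 4, of batch 2 like Sham replicate 4, thus lay mostly within the Sham range. The batch term itself was past the threshold in edgeR in 0 of the 33 members and in 1 of all 16370 genes tested. The log2 fold change of batch 2 over batch 1 was below 0 in Pck1 only (−0.59). In the other members it ran from 0.019 (Slc2a4) to 2.40 (Thrsp).

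Set against Adipoq within each library, Cidec, Plin1 and Cfd kept nearly the same mean proportion in both groups. The ratio of Cidec to Adipoq was 0.701, 0.483, 0.780 and 0.817 in NeMO, against 0.757, 0.669, 0.725 and 0.695 in Sham, although Adipoq itself ranged from 15.2 to 185 CPM. The ratio of Plin1 to Adipoq spanned 0.356 to 0.729 in NeMO libraries, against 0.432 to 0.554 in Sham libraries, and that of Cfd 4.26 to 8.25 in NeMO libraries, against 5.20 to 7.63 in Sham libraries. The mean ratio in NeMO over that in Sham was 0.977 for Cidec, 1.05 for Plin1 and 0.948 for Cfd. The mean ratios of Fasn (1.11), Scd1 (1.12), Cd36 (1.15) and Gpd1 (1.03) in NeMO over Sham were also near 1. Those of Retn (0.769), Lep (1.35) and Cidea (0.611) were farther from it. So were those of Lipe (1.34), Agpat2 (1.39), Lpl (1.45), Acly (1.54), Dgat2 (1.54) and Acaca (1.63). The mean ratios were 1.72 for Acsl1, 1.74 for Pnpla2, 1.77 for Slc2a4, 1.89 for Plin4, 1.97 for Dgat1 and 1.98 for Lpin1. They were 2.06 for Pparg, 2.08 for Cebpa, 2.43 for Elovl6 and 2.00 for Mgll, genes that varied less between libraries than Adipoq. Without NeMO replicate 3, the library with the least Adipoq, they were 1.31 for Pparg, 1.33 for Cebpa, 1.64 for Elovl6 and 1.24 for Mgll (3 NeMO and 4 Sham libraries), while Lep stood at 1.59. The other ratios also moved towards 1 without that library in Lipe (1.055), Agpat2 (1.156), Lpl (1.145), Acly (1.185), Dgat2 (1.181) and Acaca (1.29). The same held for Acsl1 (1.328), Pnpla2 (1.278), Slc2a4 (1.246), Plin4 (1.537), Dgat1 (1.238) and Lpin1 (1.371).

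Fasn, Thrsp and Pck1 differed in their ratio to Adipoq between libraries of the same group. The ratio of Fasn to Adipoq was 8.68, 9.22, 16.7 and 21.95 in NeMO, against 6.57, 17.0, 10.3 and 17.3 in Sham. The ratio of Thrsp to Adipoq was 0.550, 0.657, 0.502 and 2.74 in NeMO, against 0.408, 2.05, 0.950 and 2.07 in Sham. That of Pck1 was 0.333, 0.336, 0.399 and 0.031 in NeMO, against 0.707, 0.072, 0.377 and 0.102 in Sham. The 3 libraries with the highest Fasn and Thrsp ratios, NeMO replicate 4 and Sham replicates 2 and 4, had the 3 lowest Pck1 ratios. NeMO replicate 3 was an exception, with a Fasn ratio of 16.7, close to that of Sham replicate 2, and the next highest Pck1 ratio after Sham replicate 1. Sham replicate 1, lowest in the ratio of Fasn and of Thrsp, was highest in that of Pck1. These libraries come from both groups and both batches. Thrsp and Pck1 were singled out after their values were seen. Acly, Acaca, Scd1 and Elovl6 did not share the order of Fasn and Thrsp. In Sham replicate 4 their ratios to Adipoq were 6.50, 0.741, 15.9 and 0.886. In NeMO replicate 3 they were 17.9, 2.11, 18.6 and 7.69.

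**Figure D4:**
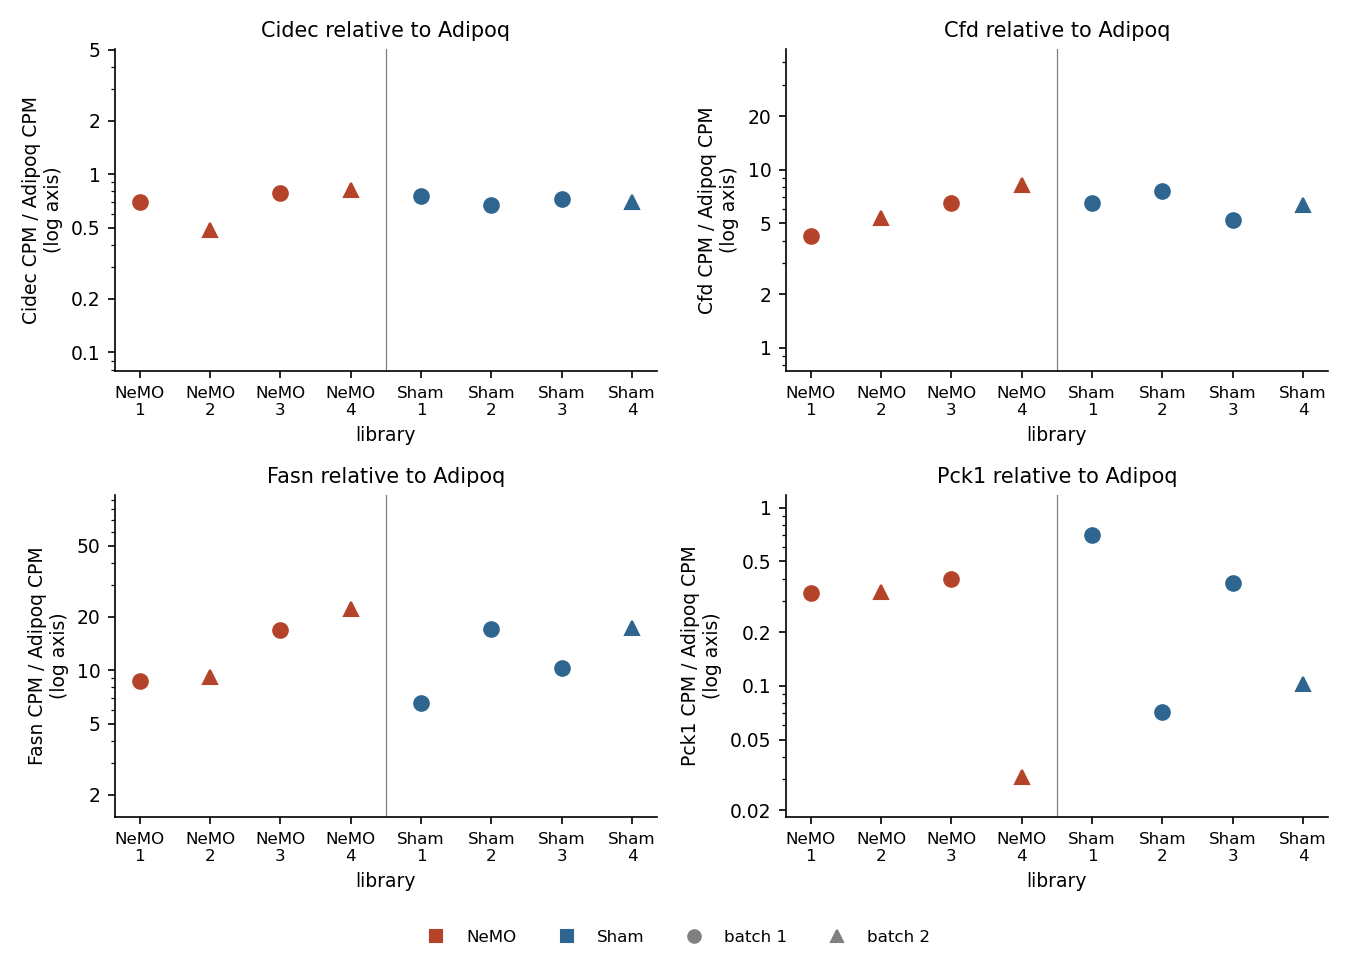
Ratio of the CPM of Cidec, Cfd, Fasn and Pck1 to that of Adipoq in each library, on log axes that span the same fold range (colour is the group, shape the batch). Cidec and Cfd stay within a narrow band, while Pck1 separates NeMO replicate 4 and Sham replicates 2 and 4 from the others. Those 3 are also the highest in Fasn, with NeMO replicate 3 close to them.

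Fat markers outside the 34 genes were lower on average too. Of 10 such genes 10 had a log2 fold change below 0, where 51.7% of all genes did, with a median of −0.97. In edgeR 0 passed, where 0.0733% of all genes did. At an unadjusted p under 0.05 in edgeR 4 were lower, against 9.14% of all genes. Adig, an adipocyte membrane protein gene, measured 4.87, 7.39, 1.46 and 8.88 CPM in NeMO, against 8.69, 7.51, 7.63 and 19.4 CPM in Sham, for a log2 fold change of −1.30 (SE 0.32, edgeR adjusted p = 0.11). Slc7a10, an amino acid carrier of white fat, stood at −1.37 (SE 0.36), Nat8l, which makes N-acetylaspartate, at −1.60 (SE 0.51) and Mrap, a partner of the ACTH receptor, at −1.41 (SE 0.59). The summed level of the markers other than Pde3b, which is abundant in other cells, was 65.1, 53.5, 32.2 and 99.3 CPM in NeMO, against 104, 71.2, 70.3 and 182 CPM in Sham. NeMO replicate 3 was lowest and Sham replicate 4 highest, as in the members. The amount of fat attached to each bladder is not given in the labels, and its part in the differences was not tested.

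The other genes of the pathway were mostly nearer to level, and in edgeR 0 of them passed, where 0.0733% of all genes did. The share of all genes with a log2 fold change below 0 was 51.7%. At an unadjusted p under 0.05 in edgeR, 9.14% of all genes were lower and 9.38% higher. At that p 4 of 11 lipid droplet and lipase cofactor genes were lower and 1 higher. Of 15 lipogenic regulators and enzymes 7 were lower at that p and 0 higher. Of 11 tested lipid droplet and lipase cofactor genes 9 were lower (median −0.18). G0s2, an inhibitor of Pnpla2, measured 12.04, 11.2, 9.61 and 21.4 CPM in NeMO, against 17.1, 18.7, 18.5 and 46.6 CPM in Sham, for a log2 fold change of −1.03 (SE 0.23, edgeR adjusted p = 0.0994). Of 15 lipogenic regulators and enzymes 14 were lower (median −0.26), among them Acacb, the carboxylase that limits fatty acid oxidation (−1.03, SE 0.18, edgeR adjusted p = 0.0784). Bscl2, the seipin gene of droplet formation, stood at −0.38 (SE 0.09) and Plin2, the perilipin of most cells, at −0.36 (SE 0.10). Fitm2, which helps droplets bud, stood at −0.32 (SE 0.13). The acetyl-CoA synthetase Acss2 stood at −0.82 (SE 0.22), the malic enzyme Me1 at −0.68 (SE 0.19) and the citrate carrier Slc25a1 at −0.79 (SE 0.22).

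Among 12 further genes of triglyceride synthesis and fatty acid activation 6 were higher and 6 lower (median −0.02). At an unadjusted p under 0.05 in edgeR 3 of these were higher and 2 lower. Mogat1, a monoacylglycerol acyltransferase, stood at −1.99 (SE 0.44, edgeR adjusted p = 0.0899) at levels near 1 CPM. Gpam, the mitochondrial acyltransferase of the first step, measured 133, 147, 143 and 155 CPM in NeMO, against 89.0, 124, 118 and 110 CPM in Sham (0.37, SE 0.11, edgeR adjusted p = 0.142). Lpin2, a relative of Lpin1, was likewise above Sham in all NeMO libraries (0.46, SE 0.12, edgeR adjusted p = 0.114), where 4.39% of all genes were so. Agpat1, a relative of Agpat2, stood at −0.29 (SE 0.08). Of 9 genes of lipid uptake 7 were lower (median −0.21), of 11 adipogenic factors 8 (median −0.07), and of 8 receptors and signal genes of adipokines and insulin 3 (median 0.04). In these lists 3, 1 and 2 genes were lower at an unadjusted p under 0.05 in edgeR, and 0, 1 and 1 higher. The fatty acid transporters Slc27a4 and Slc27a1 stood at −0.24 (SE 0.06) and −0.46 (SE 0.17), and Lmf1, which matures lipoprotein lipase, at −0.26 (SE 0.08). The PPAR gamma partner Rxra stood at −0.21 (SE 0.08), and the adipogenic factor Klf5 at 0.25 (SE 0.10). The kinase gene Akt2 lay below Sham in all NeMO libraries (−0.33, SE 0.10, edgeR adjusted p = 0.147), against 3.81% of all genes. Insr, the insulin receptor gene, stood at 0.19 (SE 0.08), and the adiponectin receptor gene Adipor2 at −0.25 (SE 0.11).

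Of the markers of other cells, 0 passed in edgeR, where 0.0733% of all genes did. Adipocyte progenitor genes had a median of −0.22. One of these, Dlk1, a preadipocyte gene, measured 2.12, 0.993, 0.583 and 0.526 CPM in NeMO, against 2.68, 3.26, 3.95 and 4.63 CPM in Sham (−1.76, SE 0.45, edgeR adjusted p = 0.115). All NeMO libraries lay below all Sham libraries in Dlk1, as in 3.81% of all genes. The other progenitor genes stood between −0.28 (Ly6a) and 0.02 (Pdgfra). The 5 tested brown or beige fat genes went both ways around a median of 0.01. Of these, the cytochrome oxidase subunit genes Cox8b and Cox7a1 stood at −1.50 (SE 0.49) and −0.65 (SE 0.36), and Dio2, which activates thyroid hormone, at 0.93 (SE 0.32). Zic1 was at 0 counts in all libraries but Sham replicate 1. The median was −0.03 for smooth muscle, 0.40 for fibroblasts, 0.12 for endothelium and −0.20 for macrophages. It was −0.24 for mesothelium, −0.41 for skeletal muscle, 0.03 for sebaceous gland and −0.30 for lymphocytes. The mesothelium genes went both ways, with Msln at −0.68, Upk3b at −0.56, Lrrn4 at 0.09 and Wt1 at 0.11. Upk3b, of the same family as the urothelial Upk genes, spanned 209 to 359 CPM in NeMO and 306 to 443 CPM in Sham. Msln spanned 16.0 to 36.2 CPM in NeMO and 13.9 to 110.7 CPM in Sham. How much Upk3b RNA came from urothelium was not tested. Those of skeletal muscle ran from −0.70 (Ckm) to 0.33 (Acta1). Among them, Mylpf was scarce, at 0.717 to 2.66 CPM in NeMO and 0.629 to 2.17 CPM in Sham. Myh4 did not pass the filter on low counts, with at most 0.033 CPM in NeMO and 2.70 CPM in Sham. Urothelial genes were lower in 6 of 6 (median −0.42), where 51.7% of all genes were lower. At an unadjusted p under 0.05 in edgeR 4 were lower, against 9.14% of all genes, led by Upk2 (−0.43, SE 0.09, edgeR adjusted p = 0.0828). Male accessory gland genes summed to at most 0.138 CPM in NeMO and 0.139 CPM in Sham. The part of these cell types in the differences was not tested.

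**Figure D5:**
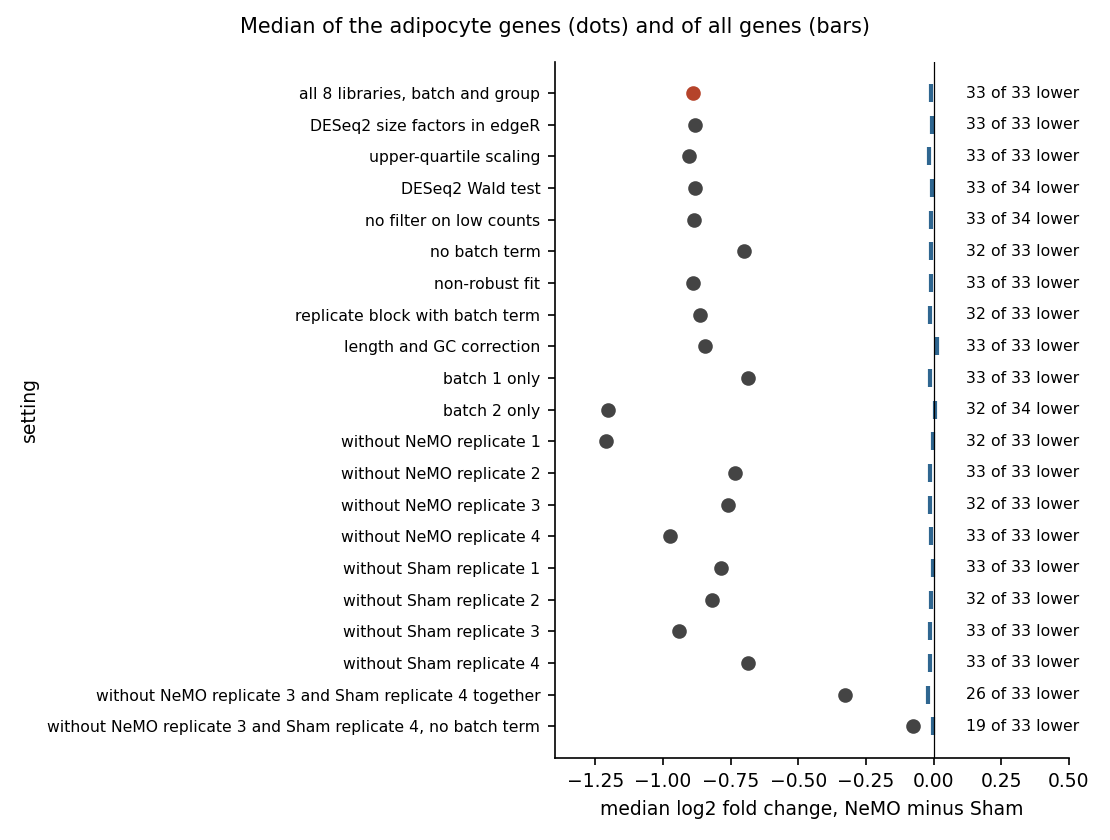
Median log2 fold change of the tested adipocyte genes (dots) and of all genes (bars), NeMO minus Sham, under each setting, with the number of members below 0. The median is −0.89 with all libraries, between −1.21 and −0.69 when 1 library is left out, and −0.07 without NeMO replicate 3, Sham replicate 4 and the batch term.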

How the data were processed

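Counts per gene symbol were used as deposited by the authors, 1 table per library. Per the submitters' processing notes, the mm10 build was used, and the tools named are featureCounts, STAR, DESeq2 and Trimmomatic, without versions. The annotation, the strand setting and the rule for multi-mapping reads were not given in the sources used here. Per the labels' protocols, a directional polyA kit and single-end sequencing were used. Groups come from the sample titles and the batch from a mark in each library's submitted file.

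Counts were fitted in R 4.3.3 with edgeR 4.0.16: filterByExpr (minimum count 10, minimum total 15), TMM scaling, and the robust quasi-likelihood F-test (two-sided, terms for group and batch), adjusted by Benjamini-Hochberg over 16370 genes. DESeq2 1.42.0 was the other test. Log2 fold changes are NeMO over Sham. Transcript lengths come from GENCODE M21 on GRCm38, the assembly mm10 names, which matched 35719 symbols directly and 1788 through a synonym. The members, the gene lists and the tests were chosen with earlier results of these data known. Values of every library are given for up to 3 members per role with the smallest unadjusted p and for Adipoq, Lep, Fabp4, Fasn, Pparg and Ucp1, and for Gpd1, Thrsp and Pck1 after their values were seen. From each other list of the pathway, genes were named from the 4 with the smallest p and a mean of at least 1 CPM. Hcar1, Hcar2 and Adgre1 of these lists had no matching symbol in the tables used. The fit was tested on simulated data. No pair of libraries within a group agreed within sampling noise. Alternatives were other scalings, tests and filters, no batch term, single batches, a replicate block, a length and GC correction, and leaving out libraries.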

Additional observations from a re-analysis of the deposited data

Results flagged for a closer look

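Among the 66 combinations of member and group, 7 had a library set apart from the other 3 of its group by Dixon's test at the 95% level. Chance flags about 1 in 20 such groups, and the members move together, so these are not independent. Thrsp stood apart in NeMO replicate 4, at 173.6 CPM against 7.63 to 33.7 CPM in the other NeMO libraries. The other 6 were all high in Sham replicate 4. They were Lep (36.99 CPM, against 6.27 to 7.39 in Sham replicates 1 to 3), Fasn (3186 CPM, against 610 to 937), Gpd1 (281.8 CPM, against 42.0 to 64.1), Lpin1 (92.87 CPM, against 46.4 to 50.7), Dgat2 (483.1 CPM, against 158 to 195) and Mgll (227.5 CPM, against 139 to 150). Both libraries are of batch 2, in which Sham replicate 4 is the only Sham library, so for the Sham group this library and the batch cannot be told apart.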

How the results depend on the processing

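With all 8 libraries 12 of all genes passed in edgeR. That number was 866 with DESeq2, 172 with no filter on low counts, 7 with no batch term, 2 with a replicate block beside the batch term, 0 in batch 1 alone, 7 in batch 2 alone, and 0 to 652 when 1 library was left out. Without NeMO replicate 3 and Sham replicate 4 it was 2 with the batch term and 1 with no batch term. The number of members that passed, 0 with all libraries, was 6 with DESeq2, 1 in batch 2 alone, and 0 to 6 when 1 library was left out (6 without NeMO replicate 1). The median over the members was −1.21 to −0.69 when 1 library was left out. Without NeMO replicate 3 and Sham replicate 4, alternatives chosen after the values were seen, it was −0.33 with the batch term and −0.075 with no batch term. With the term kept, log2 fold changes on the other side of 0 were Acsl1 0.027, Lep 0.71, Lpin1 0.045, Lpl 0.013, Mgll 0.078, Plin4 0.41 and Slc2a4 0.24. With no batch term they were Acaca 0.20, Acly 0.12, Acsl1 0.024, Agpat2 0.14, Cebpa 0.066, Dgat2 0.074, Elovl6 0.32, Fasn 0.11, Gpd1 0.44, Lep 0.85, Lpin1 0.16, Plin4 0.13, Scd1 0.022 and Thrsp 0.20. Elovl6 was above 0 in 5 more alternatives: 0.11 with no batch term, 0.026 with the replicate block, 0.067 in batch 2 alone, 0.0041 without NeMO replicate 1 and 0.034 without Sham replicate 2. Its range when 1 library was left out was −0.080 to 0.034. Plin4 was at 0.17 without NeMO replicate 3 and at −0.50 without NeMO replicate 1, its range when 1 library was left out. The cause of these differences was not tested. Of the values of single members, 620 kept their direction and their side of the threshold and 13 passed only in the alternative. Deviations of same-numbered libraries correlated at −0.01, 0.08, 0.04 and 0.32 for replicates 1 to 4. So few libraries cannot settle whether the replicate numbers pair them, and both libraries numbered 4 are of batch 2. With the replicate block the median over the members was −0.86. With 4 libraries a group, and 1 Sham library in batch 2, precision is limited by the spread between libraries, and for Ucp1 by counts.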
